A study of Mus musculus with 3 samples.

Results

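The visceral endoderm genes examined here were 10 genes for secreted carriers (Afp, Ttr, Rbp4, Apoa1, Apoe), for endocytic uptake (Amn, Cubn, Dab2) and for their transcription factors (Hnf4a, Foxa1), of 18193 genes that had at least 1 probe set naming no other gene. They were chosen by name as genes of an extraembryonic tissue, and every such probe set of theirs, 27 in all, was read. Affymetrix arrays had measured RNA from differentiating progeny of A2.snail mouse embryonic stem cells, a line in which doxycycline switches on Snail, a repressor of epithelial genes. All cells had differentiated to day 3 as embryoid bodies in serum with DKK1, a secreted inhibitor of Wnt signalling. There were 3 groups with 1 array each. Snail-induced Flk1+ cells and Snail-induced Flk1- cells came from culture with 250 ng/mL doxycycline from day 2, and untreated Flk1- cells received no doxycycline. The labels name a sort for the induced fractions, and call the untreated cells Flk1- without naming one. Flk1, the product of Kdr, is a VEGF receptor found on mesoderm with vessel and blood potential. No array of untreated Flk1+ cells and none of doxycycline-treated cells lacking the Snail gene was used here, so effects of Snail and of doxycycline cannot be told apart, and Snail-induced Flk1+ against untreated Flk1- cells also holds the gate. No value has a replicate check, no p-value is given, and the number of arrays limits the precision.

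Visceral endoderm is the epithelium that surrounds the early mouse embryo and feeds it before the placenta works. It arises in embryoid bodies as an outer layer beside the epiblast-like cells. Its cells secrete plasma proteins much as the fetal liver does, under factors such as Hnf4a and FoxA proteins, and take up maternal proteins through the receptor cubilin, which reaches the cell surface with amnionless. Megalin, encoded by Lrp2, works beside cubilin, and the adaptor Dab2 links megalin to clathrin. Several of these genes are not private to visceral endoderm: Apoe and Dab2, for example, are also used by macrophages and by mesenchymal cells.

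The arrays had median intensities of 44.6 in Snail-induced Flk1+, 42.4 in Snail-induced Flk1- and 42.7 in untreated Flk1- cells. A value is called above the floor when it reaches 25.6 intensity units, which is the 40th percentile of the deposited values. Values under the floor have no order. The Snai1 probe set gave 19.8, 13.1 and 29.1 in that order of arrays, so induction of Snail cannot be read from it. The Kdr probe set gave 404 in Snail-induced Flk1+ cells, against 9.73 in Snail-induced Flk1- and 10.5 in untreated Flk1- cells, high on the array labelled Flk1+ alone. Of 11 pluripotent and epiblast markers, 11 were above the floor on at least 1 array, beside 76.8% of all genes. Reaching the floor does not by itself show the labelled stem cell origin. The summed intensity of the 11 markers was 13512 in Snail-induced Flk1+, 32067 in Snail-induced Flk1- and 30860 in untreated Flk1- cells.

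Promoter windows of the genes that differ most in what they showed are given first, from RefSeq on GRCm38.p6, 5′ to 3′ along the gene, from 250 bases before to 50 bases after each annotated start. Foxa1 is shown because it was above the floor in untreated cells alone, Dab2 (both annotated starts) because it was higher after induction, Cubn because it was lower in Flk1+ cells, and Afp because it was under the floor everywhere. Capitals mark matches to 4 short motifs on either strand: CAGGTG, the E-box that Snail and Zeb proteins bind; GTTAAT, a core of HNF1 elements; AGATAA, which GATA factors bind; and TGTTTAC, a forkhead element.
Foxa1, chr12:57546062-57546361, minus strand: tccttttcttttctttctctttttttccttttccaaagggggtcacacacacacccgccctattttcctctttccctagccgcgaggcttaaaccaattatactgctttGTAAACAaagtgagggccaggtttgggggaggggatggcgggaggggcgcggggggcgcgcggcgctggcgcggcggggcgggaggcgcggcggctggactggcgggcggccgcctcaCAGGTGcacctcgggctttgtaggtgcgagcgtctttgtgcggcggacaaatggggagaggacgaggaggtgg
Dab2, chr15:6299539-6299838, plus strand: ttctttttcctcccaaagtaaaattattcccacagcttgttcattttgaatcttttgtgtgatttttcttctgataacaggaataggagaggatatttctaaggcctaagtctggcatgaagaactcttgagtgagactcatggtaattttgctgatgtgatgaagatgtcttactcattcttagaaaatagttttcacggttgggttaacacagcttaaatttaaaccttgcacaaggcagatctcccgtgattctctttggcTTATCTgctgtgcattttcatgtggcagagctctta
Dab2, chr15:6386498-6386797, plus strand: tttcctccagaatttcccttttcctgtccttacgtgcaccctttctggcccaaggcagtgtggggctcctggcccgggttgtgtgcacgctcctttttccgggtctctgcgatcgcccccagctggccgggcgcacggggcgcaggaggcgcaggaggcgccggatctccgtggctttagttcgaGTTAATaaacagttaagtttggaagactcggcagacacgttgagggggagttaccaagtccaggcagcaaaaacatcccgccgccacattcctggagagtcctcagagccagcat
Cubn, chr2:13491827-13492126, minus strand: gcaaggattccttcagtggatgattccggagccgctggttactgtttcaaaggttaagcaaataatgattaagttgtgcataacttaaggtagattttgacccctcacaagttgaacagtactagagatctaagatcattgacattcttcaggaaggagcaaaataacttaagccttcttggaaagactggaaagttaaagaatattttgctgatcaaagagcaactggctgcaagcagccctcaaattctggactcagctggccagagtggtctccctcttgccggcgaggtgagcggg
Afp, chr5:90490464-90490763, plus strand: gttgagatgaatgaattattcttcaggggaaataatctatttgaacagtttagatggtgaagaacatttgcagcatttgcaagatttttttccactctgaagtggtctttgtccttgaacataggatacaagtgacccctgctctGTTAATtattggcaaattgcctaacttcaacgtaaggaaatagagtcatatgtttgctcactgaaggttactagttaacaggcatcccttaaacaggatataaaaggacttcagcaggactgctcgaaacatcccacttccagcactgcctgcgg
The Foxa1 window holds an E-box whose first base is at -23 from the start and a forkhead element at -141. The 2 Dab2 windows hold a GATA element at 15 after the start and an HNF1 core at -65, the Afp window holds an HNF1 core at -105, and the Cubn window holds none of the 4 motifs. No base lay in 2 motifs. In all, 14 windows of 9 of the genes were searched (Ttr was not), and 4 of the 14 held the E-box, 4 the HNF1 core, 2 the GATA element and 3 the forkhead element. Of all 32851 promoter windows, 20.2% held the E-box, 7.1% the HNF1 core, 11.2% the GATA element and 3.65% the forkhead element. These matches are letters in a window, and binding was not measured.

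Of the 10 genes, 7 reached the floor on at least 1 array with their brightest probe set: Hnf4a, Foxa1, Rbp4, Apoe, Amn, Cubn and Dab2. Of all 18193 genes, 76.8% did. Afp, Ttr and Apoa1 did not reach it on any array with any probe set. These are among the best known secreted products of visceral endoderm, and none of them had a readable level. The other 7 genes alone do not name the cells that hold them, and the presence of visceral endoderm was not tested. At the level of probe sets, 12 of 27 reached the floor on at least 1 array and 15 on none.

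**Figure D1:**
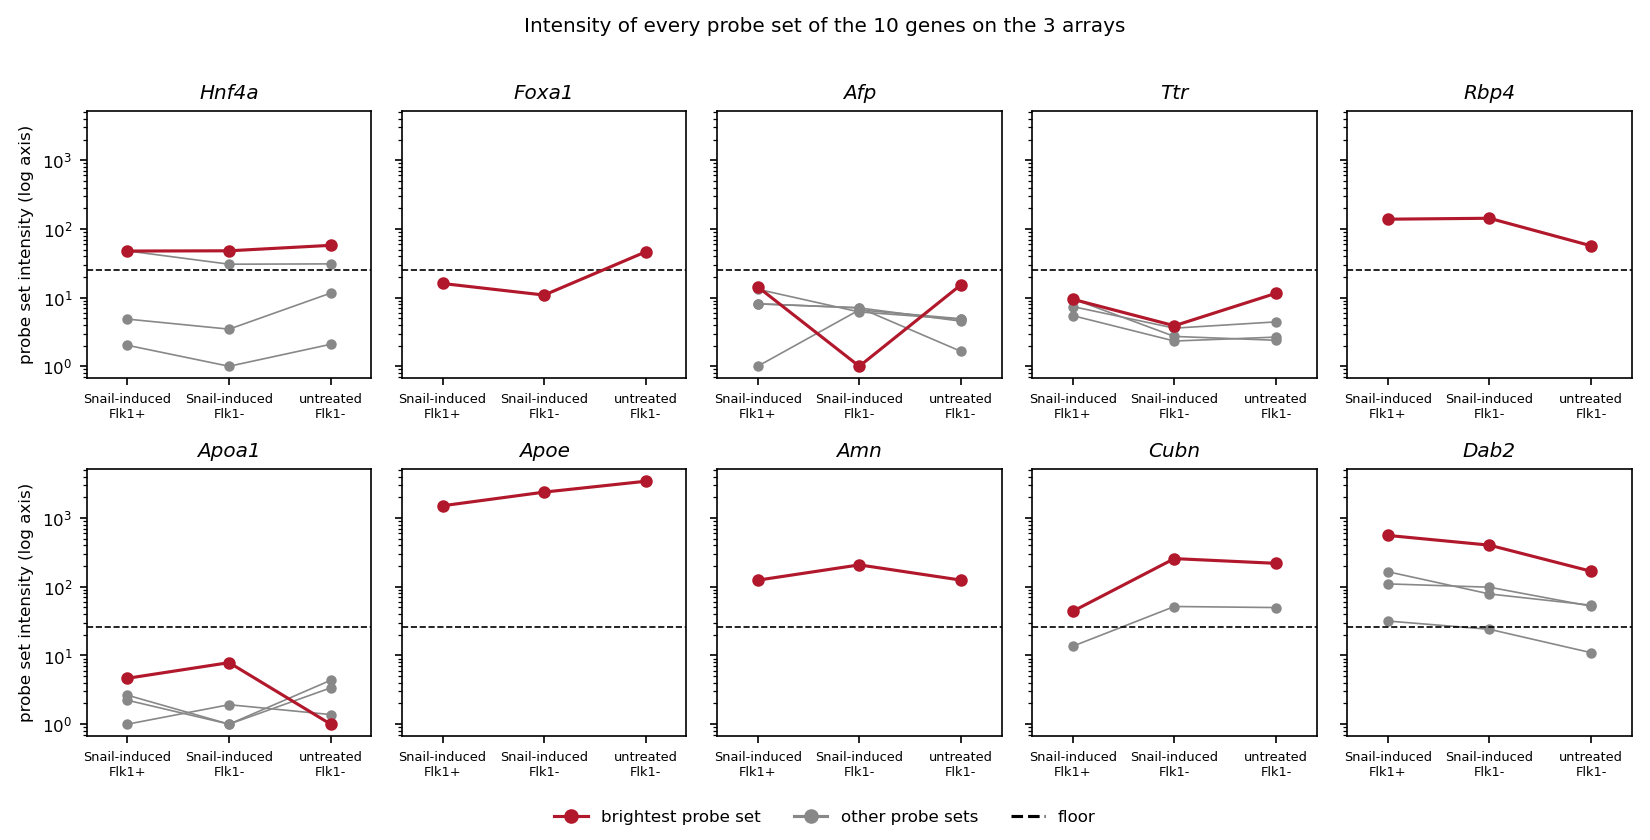
Intensity of every probe set (log axis, in intensity units) of the 10 genes on the Snail-induced Flk1+, Snail-induced Flk1- and untreated Flk1- arrays, with the brightest probe set in red, others in grey and the floor of 25.6 dashed. Each point is 1 array and lines join the values of 1 probe set. All Afp, Ttr and Apoa1 points lie under the floor, the 3 brighter Dab2 lines lie highest in Snail-induced Flk1+ and lowest in untreated Flk1- cells, and both Cubn lines are lowest in Snail-induced Flk1+ cells.

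The transcription factor genes were dim. Hnf4a, the nuclear receptor that mouse visceral endoderm needs to make its secreted proteins, gave 47.6 in Snail-induced Flk1+, 48.0 in Snail-induced Flk1- and 57.7 in untreated Flk1- cells with its brightest probe set. Its second probe set above the floor gave 47.8, 30.6 and 31.0 in the same order, and the remaining 2 stayed under the floor. The 2 readable probe sets therefore put Hnf4a 1.18-fold lower and 1.42-fold higher in Snail-induced Flk1+ than in untreated Flk1- cells, with no common direction. Foxa1, a pioneer factor that opens chromatin at endoderm and liver genes, gave 16.0 in Snail-induced Flk1+, 10.9 in Snail-induced Flk1- and 46.4 in untreated Flk1- cells. It was above the floor in untreated cells alone, and against the floor it was at least 1.82-fold lower in each Snail-induced array. The size of that difference is a bound, since both induced values lay below what the floor resolves.

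Of the 5 secreted carriers, Rbp4 and Apoe were above the floor. Afp, the fetal plasma carrier that is the usual marker of visceral endoderm, ranged from 1 to 15.3 over its 5 probe sets and the 3 arrays. Ttr, which carries thyroxine and binds the retinol carrier Rbp4, ranged from 2.33 to 11.6 over 4 probe sets. Apoa1, the main protein of high density lipoprotein, ranged from 1 to 7.87 over 4 probe sets. No array stood out for these 3 genes, and no fold is given where all values lie under the floor.

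Rbp4, the plasma carrier of retinol, was above the floor on every array and higher in both induced fractions. Its 1 probe set gave 138.5 in Snail-induced Flk1+, 142.9 in Snail-induced Flk1- and 56.75 in untreated Flk1- cells. The level was 2.30-fold higher in Snail-induced Flk1- than in untreated Flk1- cells, a log2 difference of 1.20, and 2.23-fold higher in Snail-induced Flk1+ than in untreated Flk1- cells. Between the 2 fractions of the induced culture it differed by 1.03-fold. The 2 induced arrays were thus alike in Rbp4 and above the untreated one, while its partner Ttr stayed under the floor. All folds between values above the floor are taken on the log2(value + 9.53) scale. The added constant, the 20th percentile of the deposited values, makes folds of dim genes too small.

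Apoe, the ligand by which lipoprotein remnants bind the LDL receptor family, was bright in all arrays and went the other way. Its 1 probe set gave 1514 in Snail-induced Flk1+, 2392 in Snail-induced Flk1- and 3443 in untreated Flk1- cells. It was 1.44-fold lower in Snail-induced Flk1- than in untreated Flk1- cells and 1.58-fold lower in Snail-induced Flk1+ than in Snail-induced Flk1- cells. Across both steps it was 2.27-fold lower in Snail-induced Flk1+ than in untreated Flk1- cells, a log2 difference of -1.18. Neither step alone reached 2-fold. The summed pluripotent and epiblast markers were also lowest in Snail-induced Flk1+ cells, and their part in the Apoe values was not tested.

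The 3 uptake genes did not move together. Amn, whose product amnionless anchors cubilin and carries it to the surface, gave 124.9 in Snail-induced Flk1+, 208.5 in Snail-induced Flk1- and 125.2 in untreated Flk1- cells. It was 1.62-fold higher in Snail-induced Flk1- than in untreated Flk1- cells and 1.62-fold lower in Snail-induced Flk1+ than in Snail-induced Flk1- cells, under 2-fold each time. Cubn, the receptor gene itself, gave 44.0 in Snail-induced Flk1+, 257.4 in Snail-induced Flk1- and 219.6 in untreated Flk1- cells with its brighter probe set. Its other probe set gave 13.6, 51.7 and 49.9 in the same order.

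By the brighter probe set Cubn was 4.99-fold lower in Snail-induced Flk1+ than in Snail-induced Flk1- cells, a log2 difference of -2.32. By the other it was at least 2.02-fold lower. Against untreated Flk1- cells the Flk1+ value was 4.28-fold lower, while the 2 Flk1- arrays differed by 1.16-fold. Cubn therefore separated the Flk1+ fraction from both Flk1- fractions, whereas Amn separated none of the arrays by 2-fold. In bulk RNA, fewer cells that carry a transcript and less of it per cell cannot be told apart.

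Dab2, the clathrin adaptor that mouse visceral endoderm needs for uptake by the megalin family, was higher in both induced fractions than in untreated cells by its 3 brighter probe sets. The brightest gave 559.9 in Snail-induced Flk1+, 404 in Snail-induced Flk1- and 168.4 in untreated Flk1- cells. The next gave 165.9, 78.7 and 54.0 in that order, another 110.3, 98.7 and 52.2, and the dimmest 31.8, 24.1 and 10.99. The 3 brighter ones were highest in Snail-induced Flk1+ and lowest in untreated Flk1- cells, and the dimmest was above the floor in Snail-induced Flk1+ cells alone.

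The brightest Dab2 probe set was 2.32-fold higher in Snail-induced Flk1- than in untreated Flk1- cells, but the next 2 in brightness gave 1.39-fold and 1.75-fold. Of the 3, the brightest alone passed 2-fold here. Against untreated Flk1- cells the Snail-induced Flk1+ value was 3.20-fold, 2.76-fold and 1.94-fold higher by the same 3 probe sets. Between Snail-induced Flk1+ and Snail-induced Flk1- cells they gave 1.38-fold, 1.99-fold and 1.11-fold. All were hybridised to the same 3 RNA samples, so a shared direction is no replicate.

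Over the 7 genes above the floor, 2 (Dab2 and Rbp4) were at least 2-fold higher in Snail-induced Flk1- than in untreated Flk1- cells, and 1 (Foxa1) was counted as at least 2-fold lower. Foxa1 was above the floor through the untreated array alone, so it could only be counted as lower, and its bound of 1.82-fold does not reach 2-fold. Of all 13969 genes above the floor, 2.95% were higher and 2.03% lower by that rule, which reads the log2(value + 9.53) difference also where 1 value lies under the floor. The median log2 difference was 0.22 over the 7 genes and 0.04 over all. Of the called genes of this comparison 59.3% were higher, and 44.1% with each array centred on its median, which lowered all differences by 0.10, with the directions of the 7 genes as before.

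In Snail-induced Flk1+ against Snail-induced Flk1- cells, 0 of the 7 were at least 2-fold higher and 1 (Cubn) was lower, beside 4.85% and 4.89% of all genes, with medians of -0.04 over the 7 and 0.00 over all; Hnf4a, at -0.01, turned positive with centred arrays. In Snail-induced Flk1+ against untreated Flk1- cells, 2 (Dab2 and Rbp4) were higher and 3 (Cubn, Apoe and, with the same limit, Foxa1) lower, beside 8.1% and 6.41% of all genes, with medians of -0.23 and 0.01. The last comparison shares an array with each of the others and adds no independent evidence. In none of the 3 comparisons did the 7 genes go one way.

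**Figure D2:**
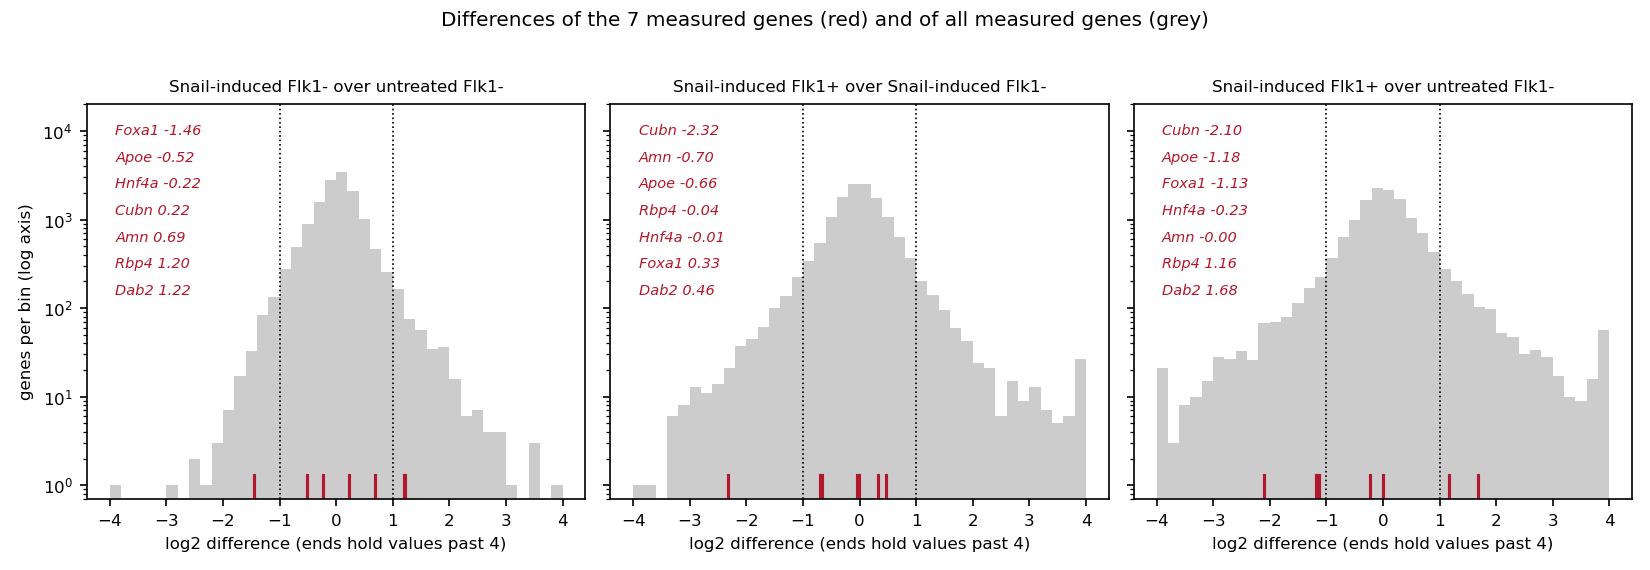
Histograms of the log2 difference of all measured genes (grey, genes per bin on a log axis, end bins holding values past 4) for Snail-induced Flk1- over untreated Flk1-, Snail-induced Flk1+ over Snail-induced Flk1-, and Snail-induced Flk1+ over untreated Flk1- cells, with the 7 genes above the floor as red ticks listed by value and 2-fold as dotted lines. Cubn stands at -2.32 in the middle panel, where Foxa1 has both values under the floor, and Dab2 and Rbp4 stand past the upper line in the outer panels.

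Other genes of the same machinery were read from 6 lists. Of the transcription factors of primitive and visceral endoderm, 6 of 8 with a probe set were above the floor, beside 76.8% of all genes. In Snail-induced Flk1- against untreated Flk1- cells 0 of 6 passed 2-fold, with a median log2 difference of -0.03. Over all genes, 2.95% were higher and 2.03% lower there, so 0 of 6 does not set the list apart. In Snail-induced Flk1+ against Snail-induced Flk1- cells, 4 of 6 (Sox17, Sox7, Hhex and Gata6) passed 2-fold upwards and 0 downwards. Over all genes, 4.85% and 4.89% did. The list median was 2.62. The median was 1.74 when a gene's probe sets were averaged, 1.22 with no floor (8 genes) and 3.40 with the floor at the 60th percentile (5 genes). Sox17 gave 1466 in Snail-induced Flk1+, 96.2 in Snail-induced Flk1- and 68.3 in untreated Flk1- cells, and Sox7 gave 1291, 95.1 and 95.5 in the same order. Sox7, Sox17 and Hhex are also genes of early endothelium and its precursors, and Gata6 is also a gene of mesoderm. Foxa2, a factor of endoderm and of axial mesoderm, was under the floor on all arrays, with 16.2, 10.9 and 20.1, and Gata4 gave 106.3, 67.0 and 78.9.

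Secreted plasma proteins other than the carriers above were mostly near or under the floor. Of 14 with a probe set, 6 were under it on every array, among them the 3 fibrinogen genes Fga, Fgb and Fgg. Alb, the albumin gene, gave 8.75 in Snail-induced Flk1+, 18.0 in Snail-induced Flk1- and 38.0 in untreated Flk1- cells, and was at least 1.49-fold lower in each induced array. Afm, the gene of an albumin relative, gave 32.4, 14.5 and 39.0, and was at least 1.53-fold lower in Snail-induced Flk1- than in untreated Flk1- cells. Apob, which builds lipoprotein particles, gave 39.7, 27.2 and 13.1, at least 1.55-fold higher in Snail-induced Flk1+ than in untreated Flk1- cells. Mttp, which loads lipid onto Apob, gave 137.9, 155.3 and 101.5. Over the 8 genes above the floor, 0 were counted as higher and 1 (Afm) as lower in Snail-induced Flk1- against untreated Flk1- cells. None passed 2-fold between the induced fractions. In Snail-induced Flk1+ against untreated Flk1- cells, 1 (Apob) was counted as higher and 1 (Alb) as lower. The calls of Afm, Apob and Alb each rest on a value under the floor, and their bounds do not reach 2-fold. Over all genes, 2.95% were higher and 2.03% lower in the first comparison, 4.85% and 4.89% in the second and 8.1% and 6.41% in the last.

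Few genes of the uptake machinery passed 2-fold. Of 21 measured genes of coated pits, adaptors and recycling, 0 were at least 2-fold higher in any of the 3 comparisons. Lrp2 was the 1 gene at least 2-fold lower, in both comparisons with untreated Flk1- cells, and 0 were lower between the induced fractions. Over all genes, 2.95% were higher and 2.03% lower in Snail-induced Flk1- against untreated Flk1- cells. Between the induced fractions the shares were 4.85% and 4.89%, and in Snail-induced Flk1+ against untreated Flk1- cells 8.1% and 6.41%. With shares this low, counts of 0 or 1 of 21 do not set the list apart. Lrp2, the megalin gene, gave 138.2 in Snail-induced Flk1+, 241.6 in Snail-induced Flk1- and 572.5 in untreated Flk1- cells. It was 2.32-fold lower in Snail-induced Flk1- than in untreated Flk1- cells and 3.94-fold lower in Snail-induced Flk1+ than in untreated Flk1- cells, and its second probe set above the floor had the same direction each time. The receptor gene Lrp2 was thus lowest, and the gene of its adaptor Dab2 highest, in Snail-induced Flk1+ cells. Lrpap1, the chaperone of megalin, gave 594.5, 797.6 and 872.2, and the clathrin heavy chain gene Cltc gave 5229, 4527 and 4517. In Snail-induced Flk1- against untreated Flk1- cells, only 1 of 4 Lrpap1 and 1 of 2 Cltc probe sets above the floor had the direction of these values. Between the induced fractions 3 of 4 and 2 of 2 had it, and in the last comparison 3 of 4 and 1 of 2. The list medians were 0.00, 0.19 and 0.21 for the 3 comparisons as ordered above.

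Genes for retinol handling around Rbp4 showed no difference past 2-fold, beside at most 8.1% of all genes in either direction of any comparison. Stra6, the receptor that takes retinol from Rbp4, gave 36.7 in Snail-induced Flk1+, 30.7 in Snail-induced Flk1- and 29.3 in untreated Flk1- cells. Rdh10, which starts the conversion to retinoic acid, gave 271.1, 350.2 and 226.2. The 3 measured genes had median log2 differences of 0.05, -0.05 and 0.25, and none of these signs held under every alternative: the first was -0.05 with each array centred on its median, the second 0.20 and the third -0.09 with a gene's probe sets averaged, and the third -0.21 without probe sets ending in _s_at, _x_at or _a_at. Rdh10 has 2 probe sets above the floor, which differed in direction in both comparisons with untreated Flk1- cells.

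Lipoprotein receptors and remodelling genes, which handle particles carrying Apoe and Apoa1, went both ways in the Flk1+ fraction. Against Snail-induced Flk1- cells 1 of 10 measured genes was at least 2-fold higher and 3 were lower, beside 4.85% and 4.89% of all genes. Against untreated Flk1- cells 2 were higher and 4 lower (median -0.86), beside 8.1% and 6.41% of all genes. Abca1, the exporter that loads cholesterol onto Apoa1, gave 259.6 in Snail-induced Flk1+, 103.1 in Snail-induced Flk1- and 54.7 in untreated Flk1- cells, 4.19-fold higher in the first than in the last. Abcg1, an exporter to mature high density lipoprotein, gave 11.7, 81.7 and 149.1, at least 5.83-fold lower in Snail-induced Flk1+ than in untreated Flk1- cells. For each of Abca1 and Abcg1, 1 of 2 probe sets above the floor went the other way between the induced fractions. Lpl gave 192.8, 461.9 and 487.6 in the same order, 2.33-fold lower in Snail-induced Flk1+ than in Snail-induced Flk1- cells. Pltp, which transfers phospholipid between particles, gave 534.9, 1090 and 1608 and was 2.97-fold lower, and Lrp1, an Apoe receptor, gave 667.5, 447.1 and 244.7 and was 2.66-fold higher, in Snail-induced Flk1+ than in untreated Flk1- cells.

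Of 7 other genes known from visceral endoderm, 4 were measured, beside 76.8% of all genes. Cer1 and Ihh, signals of its anterior and general domains, were under the floor on all arrays. Bmp2 gave 175.8 in Snail-induced Flk1+, 36.1 in Snail-induced Flk1- and 13.1 in untreated Flk1- cells, 4.06-fold higher between the induced fractions. Rhox5 gave 156, 602 and 427.6, and was 3.69-fold lower between the induced fractions, as Lefty1 was 3.13-fold lower, with 2084, 6552 and 4672. Lefty1 and Rhox5 are also expressed by pluripotent cells, and Bmp2 by endothelium, so none of the 3 is private to visceral endoderm.

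**Figure D3:**
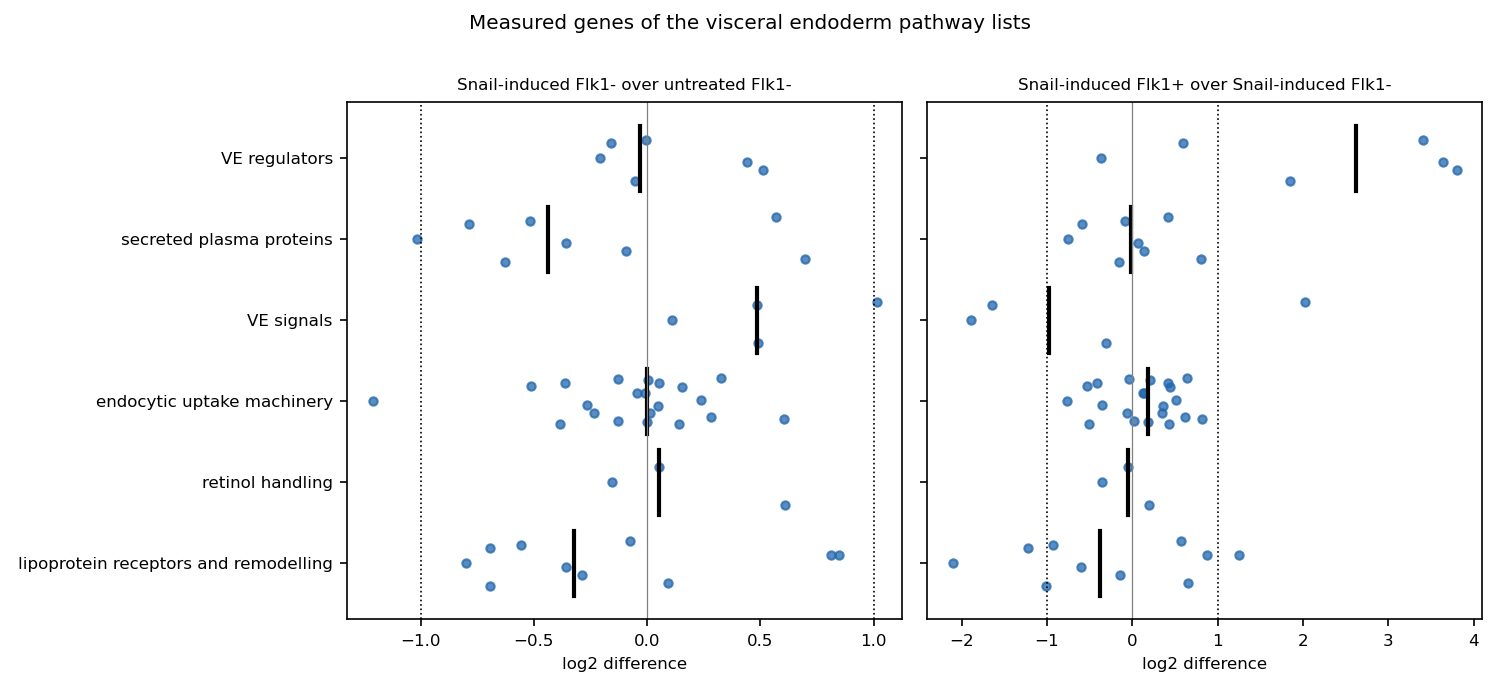
Log2 differences of the measured genes of 6 pathway lists (points, 1 per gene; black bars, list medians; dotted lines, 2-fold) for Snail-induced Flk1- over untreated Flk1- cells on the left and Snail-induced Flk1+ over Snail-induced Flk1- cells on the right, on separate axes. VE stands for visceral endoderm. Nearly all points on the left lie within 2-fold, and on the right the regulators Sox17, Sox7, Hhex and Gata6 lie above it.

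Markers of other cells that could hold these transcripts were read beside the 10 genes. Parietal endoderm, the other extraembryonic endoderm, had 11 of 11 markers above the floor on at least 1 array, beside 76.8% of all genes. Its summed intensities were 20921 in Snail-induced Flk1+, 8608 in Snail-induced Flk1- and 6993 in untreated Flk1- cells. The sums moved in the same order as Dab2, and their part in it was not tested. In Snail-induced Flk1+ cells most of the sum came from basement membrane genes that endothelium also makes, Col4a1 with 7178, 1423 and 1023 and Sparc with 4502, 2024 and 1567. Col4a2 gave 3004, 572.7 and 470.2 in the same order. Thbd, a defining gene of parietal endoderm that endothelium shares, gave 40.1, 10.0 and 15.0, and Srgn gave 45.0, 431 and 400.4. The list had 3 genes at least 2-fold higher and 0 lower in Snail-induced Flk1- against untreated Flk1- cells, beside 2.95% and 2.03% of all genes. Pth1r at 3.14-fold and Nid1 at 2.17-fold led these. Between the induced fractions 5 were counted as higher and 1 as lower, beside 4.85% and 4.89% of all genes. The 5 include Thbd, above the floor through the Flk1+ array alone, whose bound of 1.57-fold does not reach 2-fold.

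Trophoblast markers gave sums of 749.4 in Snail-induced Flk1+, 640.9 in Snail-induced Flk1- and 654.4 in untreated Flk1- cells, with 9 of 12 measured, beside 76.8% of all genes. Its defining factors Cdx2 and Elf5 were under the floor on all arrays. Gata3, which mesoderm and endothelium also use, was at least 7.70-fold higher and Plac1 at least 2.65-fold higher in Snail-induced Flk1+ than in Snail-induced Flk1- cells, and Tfap2c was 3.03-fold lower. Gata3 gave 196.9, 16.3 and 1.31 and Plac1 gave 67.8, 15.2 and 18.1. Both were above the floor through the Flk1+ array alone, so they could only be counted as higher there. Definitive endoderm had 7 of 10 markers measured, with sums of 3655, 484.5 and 472.5 in the same order of arrays. Between the induced fractions 4 of 7 (Sox17, Hhex, Lhx1 and Cxcr4) were counted as higher and 0 as lower, beside 4.85% and 4.89% of all genes. Lhx1 and Cxcr4 were above the floor through the Flk1+ array alone, with bounds of 1.33-fold and 1.15-fold. In Snail-induced Flk1- against untreated Flk1- cells 1 of 7 (Gsc) was higher and 0 lower, beside 2.95% and 2.03% of all genes. Gsc gave 102.0 in Snail-induced Flk1+, 92.1 in Snail-induced Flk1- and 23.9 in untreated Flk1- cells. It was at least 3.60-fold higher in Snail-induced Flk1- than in untreated Flk1- cells. Sox17 and Hhex made up most of the Flk1+ sum, and Foxa2, Cer1 and Nepn were under the floor on all arrays.

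Macrophage markers, relevant because macrophages use Apoe and Dab2, gave sums of 642.8 in Snail-induced Flk1+, 516.2 in Snail-induced Flk1- and 703.5 in untreated Flk1- cells. Of 13 markers 9 were measured, beside 76.8% of all genes. C1qa stood at 1 on every array, and Fcer1g, Itgam and Aif1 were under the floor. Over the 3 arrays, Cd68 and Mrc1 alone of the measured markers had the order of Apoe. Cd68 gave 60.04 in Snail-induced Flk1+, 106.6 in Snail-induced Flk1- and 114.5 in untreated Flk1- cells, and Mrc1 gave 32.0, 35.9 and 62.6. Every other measured marker was lowest in Snail-induced Flk1- cells, among them Adgre1 with 176.6, 103.3 and 139.9 and Ptprc with 60.6, 7.46 and 38.4. The part of macrophages in the Apoe and Dab2 values was not tested. Feeder fibroblast markers, 5 of 9 measured beside 76.8% of all genes, gave sums of 490.9, 780.6 and 459.9. In Snail-induced Flk1- against untreated Flk1- cells, 2 of the 5 (Pdgfrb at 2.64-fold and Dcn at 2.37-fold) were at least 2-fold higher and 0 lower. Over all genes, 2.95% were higher and 2.03% lower there. Of the other measured fibroblast markers, Thy1 gave 87.8 in Snail-induced Flk1+, 157.6 in Snail-induced Flk1- and 159.1 in untreated Flk1- cells. Lum, above the floor in untreated cells alone, gave 2.57, 22.1 and 33.3. In Snail-induced Flk1+ against untreated Flk1- cells, where Dab2 and Rbp4 were higher, the fibroblast markers went both ways. Pdgfrb was 2.35-fold and Col1a2 1.64-fold higher there, and Dcn was 1.77-fold, Thy1 1.73-fold and Lum at least 1.30-fold lower. The part of feeder fibroblasts in the Dab2 and Rbp4 differences was not tested. Col1a1, Postn, S100a4 and Fap were under the floor on all arrays.

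**Figure D4:**
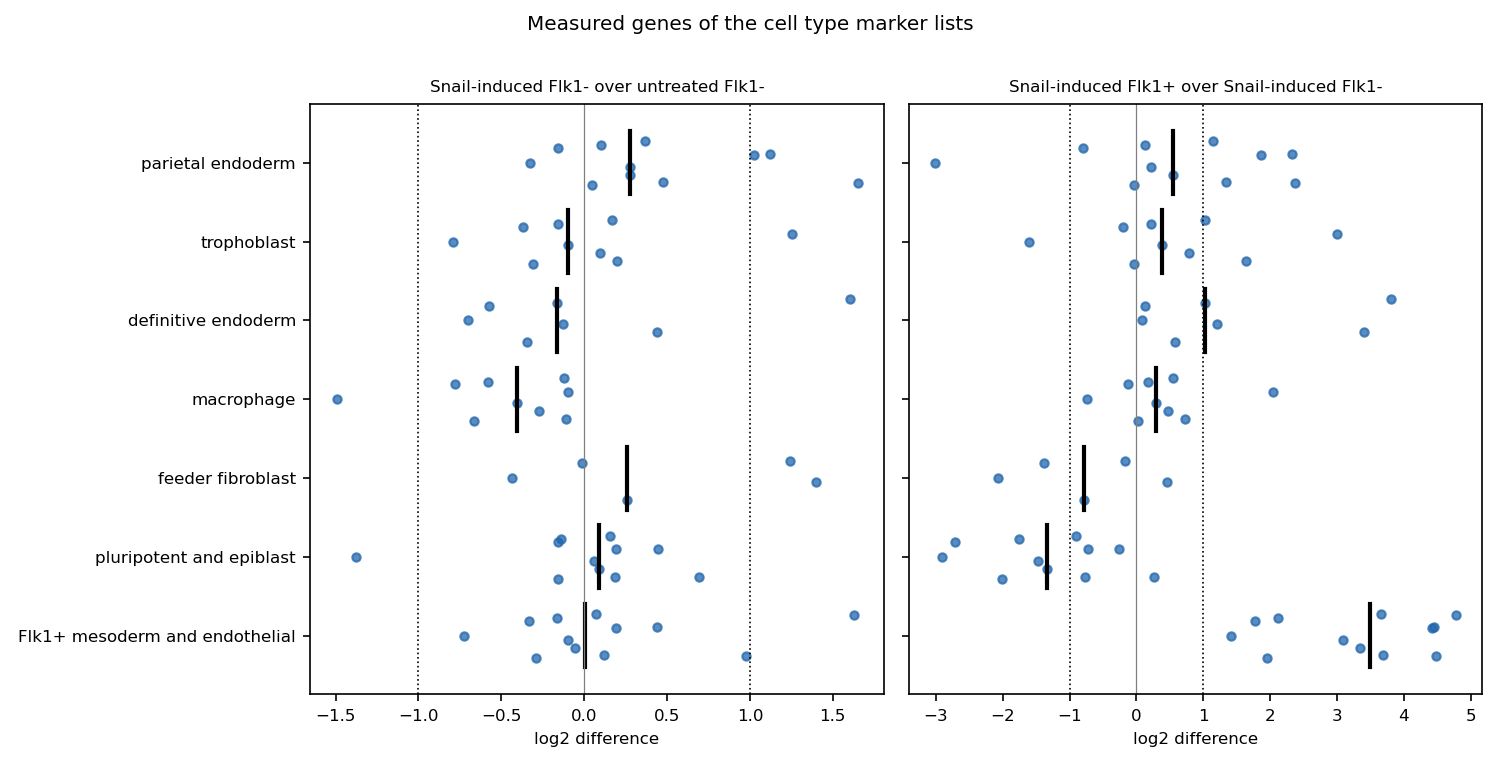
Log2 differences of the measured genes of 7 cell type marker lists (points, 1 per gene; black bars, list medians; dotted lines, 2-fold) for Snail-induced Flk1- over untreated Flk1- cells on the left and Snail-induced Flk1+ over Snail-induced Flk1- cells on the right, on separate axes. The 12 markers of Flk1+ mesoderm and endothelium all lie past 2-fold on the right (median 3.50), and the pluripotent and epiblast list has a median of -1.33 there.

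Of 12 markers of Flk1+ mesoderm and endothelium, 12 were counted as at least 2-fold higher in Snail-induced Flk1+ than in Snail-induced Flk1- cells. Over all genes above the floor, 4.85% were. The list includes genes of the gated lineage and Kdr, the gene of the gate itself. With their brightest probe sets, Kdr, Cdh5, Pecam1, Tie1, Flt1 and Emcn were above the floor through the Flk1+ array alone. These genes could only be counted as higher, and the bounds of 1.75-fold for Pecam1 and 1.67-fold for Tie1 do not reach 2-fold. The summed intensity of the 12 markers was 9378 in Snail-induced Flk1+, 1079 in Snail-induced Flk1- and 713.1 in untreated Flk1- cells. Sox18 gave 1082, 30.2 and 3.33 and Lmo2 gave 1955, 78.8 and 98.5 in the same order. Of 11 pluripotent and epiblast markers, 6 were at least 2-fold lower in Snail-induced Flk1+ than in Snail-induced Flk1- cells and 0 higher. Over all genes, 4.89% were lower and 4.85% higher. Nanog gave 202.7, 1584 and 1767 and Fgf5 gave 111.7, 785 and 2058 in the same order of arrays. Klf4 went the other way, with 765.3, 638.9 and 390.8. Cubn, Apoe and Lrp2 were lowest, and Dab2 highest, on that same Flk1+ array, and the part of the marker values in these differences was not tested.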

How the data were processed

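The probe set intensities, on a linear scale, are used as deposited by the authors. Per the labels' protocols, biotinylated cRNA was made from 2 ug of total RNA by the Affymetrix procedure. How probes were summarised and scaled, and with what software, was not stated in the labels. Of 45037 probe sets, 34945 had 1 gene symbol in the platform annotation, 932 several and 9160 none. Symbols were updated by Entrez ID to the RefSeq table of GRCm38.p6, and 204 kept the older symbol. Each gene was represented by the probe set with the highest mean on the log2(value + 9.53) scale, and 13969 of 18193 genes had it at or above the floor of 25.6 on at least 1 array. A fold with 1 value under the floor is a bound, the other value divided by the floor. Genes past 2-fold were counted and none was tested. The counting was tested on simulated data. Named from each list were the genes past 2-fold with the largest differences, up to 2 in each direction. Mttp, Gata4, Gata6, Foxa2, Stra6, Rdh10, Lrpap1, Cltc, Thbd, Srgn, Sparc, Lhx1, Cxcr4, Cd68, Mrc1, Adgre1, Thy1, Col1a2, Klf4, Cer1, Ihh and Lrp1, where the rule did not take them, were picked after their values were seen. Markers of Flk1+ mesoderm and endothelium above the floor through the Flk1+ array alone are also named. The genes and lists were chosen with earlier results of these data known. Python 3.11.15, numpy 2.4.6 and pandas 2.3.3 were used.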

Additional observations from a re-analysis of the deposited data

How the results depend on the processing

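Of 60 counts of the 10 genes past 2-fold under 10 alternatives, 48 stayed within 1.5 times the reported count. In Snail-induced Flk1- against untreated Flk1- cells, the 2 higher genes became 1 (Rbp4) when a gene's probe sets were averaged or without probe sets ending in _s_at, _x_at or _a_at, and 0 at 3-fold. The 1 lower gene became 2 (Afp and Foxa1) with no floor, and 0 with a higher floor (60th percentile), a larger offset (40th percentile) or a 3-fold rule. In Snail-induced Flk1+ against Snail-induced Flk1- cells, the 0 higher became 1 (Afp, whose values all lie under the floor) with no floor, and the 1 lower became 3 (Amn, Cubn and Apoe) at 1.5-fold. In Snail-induced Flk1+ against untreated Flk1- cells, the 2 higher became 1 (Dab2) with the larger offset or at 3-fold, and the 3 lower became 1 (Cubn) at 3-fold. Of 210 log2 differences of single genes, 194 stayed on their side of the rule and none of those past it changed sign. Without the probe sets that can read several transcripts Apoe had no probe set left, and Dab2 differed by 0.47 in Snail-induced Flk1- against untreated Flk1- cells, against 1.22 as reported. Of 390 counts of list genes, 313 stayed within 1.5 times. No paired analysis was possible because each group has 1 array, and for the same reason no replicate could be left out.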
